A study of Mus musculus with 12 samples.

Results

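The expression of 6 genes of immature neurons and 4 genes of dividing cells was followed in the cerebral cortex of adult and old mice with and without *Gde2*. They were chosen by gene symbol, and the deposited transcript values were summed to genes, so that the 10 genes were 10 of the 36047 genes in the files. *Gde2* is the common name of *Gdpd5*, which encodes a membrane enzyme that cleaves glycosylphosphatidylinositol anchors at the cell surface. Poly(A) RNA of whole cortex was sequenced from 4 groups of 3 libraries, each library from a separate animal: wildtype (WT) mice at 4 months, *Gde2*-/- mice (*Gde2*KO) at 4 months, and both genotypes at 19 months. The knockout was global and present from development on, although part of the *Gdpd5* transcript signal remained in it. Males and females were used without the sex of a library being given.

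Newborn neurons pass through a short immature stage in which they migrate and extend processes. In the adult mouse brain such cells are made mainly in the hippocampal dentate gyrus and along the walls of the lateral ventricles, from where neuroblasts reach the olfactory bulb, and the neocortex itself adds few or none. *Dcx* encodes doublecortin, a microtubule-associated protein of migrating neurons. *Sox4* and *Sox11* encode closely related SOXC transcription factors that turn on neuronal genes in newborn neurons, *Igfbpl1* encodes a secreted protein of the insulin-like growth factor binding protein family found in neuroblasts, and *Dlx1* and *Dlx2* encode homeobox factors of inhibitory interneurons. Among the genes of dividing cells, *Mki67* encodes the Ki-67 protein of the mitotic chromosome surface, *Top2a* encodes the topoisomerase that untangles sister chromatids, *Cdk1* encodes the kinase that drives entry into mitosis, and *Kif14* encodes a kinesin motor of cytokinesis. In the adult cortex dividing cells are largely glial, above all oligodendrocyte precursors.

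Depth was 46434270 to 59728494 estimated reads a library at 4 months. It was 36915259 to 44604721 at 19 months in 4 libraries, with 6734475 reads in WT library A and 3707928 in *Gde2*KO library A. Values are normalized counts, in which 1 read was worth 0.597 to 0.847 in 10 libraries, 4.66 in 19-month WT library A and 8.29 in 19-month *Gde2*KO library A. *Gdpd5* itself was at 684, 702 and 1199 normalized counts in 4-month WT against 417, 585 and 403 in 4-month *Gde2*KO, and at 1065, 1129 and 952 against 441, 456 and 560.1 at 19 months, with no overlap of the genotypes at either age. WT libraries 1 and 2 of 4 months stood apart from the other 4-month libraries. Their mean scores over 12 hippocampal markers were 2.47 and 2.39 against -0.89 to 0.11, on a log2 scale centred over all libraries. Over 10 striatal markers they were -1.75 and -1.96 against 1.20 to 2.59. The 19-month libraries scored -0.997 to 0.198 and -1.49 to 0.58, so in striatal markers the other 4-month libraries were the ones above the rest. Several results are given together with their values without 4-month WT libraries 1 and 2 or without both shallow libraries. Leaving out WT libraries 1 and 2 leaves library 3 alone in 4-month WT, so those fits take their spread from the other groups. The sources used here do not say whether the 2 ages were prepared and sequenced together, so age and library preparation cannot be told apart. In whole tissue, fewer cells of a type and less RNA per cell cannot be told apart either.

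The 10 genes spanned a wide range of levels. On the scale of TPM, in which reads are corrected for transcript length, *Dlx1* was the highest in all 4 groups, at 34.2 ± 0.973 TPM in 4-month WT (SD, n = 3), followed by *Sox4* at 12.2 ± 1.24 TPM, and neither overlapped its neighbour below in that group. *Dcx* at 5.43 TPM, *Top2a* at 4.48 TPM, *Sox11* at 4.45 TPM and *Dlx2* at 3.51 TPM followed, with each overlapping the next. These sums include noncoding transcripts. In 4-month WT the coding Dlx1-201 held 13.6% of the TPM of *Dlx1*, and the coding Top2a-201 held 43.0% of that of *Top2a*. *Cdk1* and *Igfbpl1* stood at 1.68 and 1.66 TPM and overlapped, and *Kif14* and *Mki67* were lowest, at 0.682 and 0.584 TPM, with overlapping libraries. At 19 months the order changed at its foot: *Igfbpl1* was last in both genotypes, at 0.0733 TPM in WT and 0.241 TPM in *Gde2*KO, without overlap with the gene above it.

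**Figure D1:**
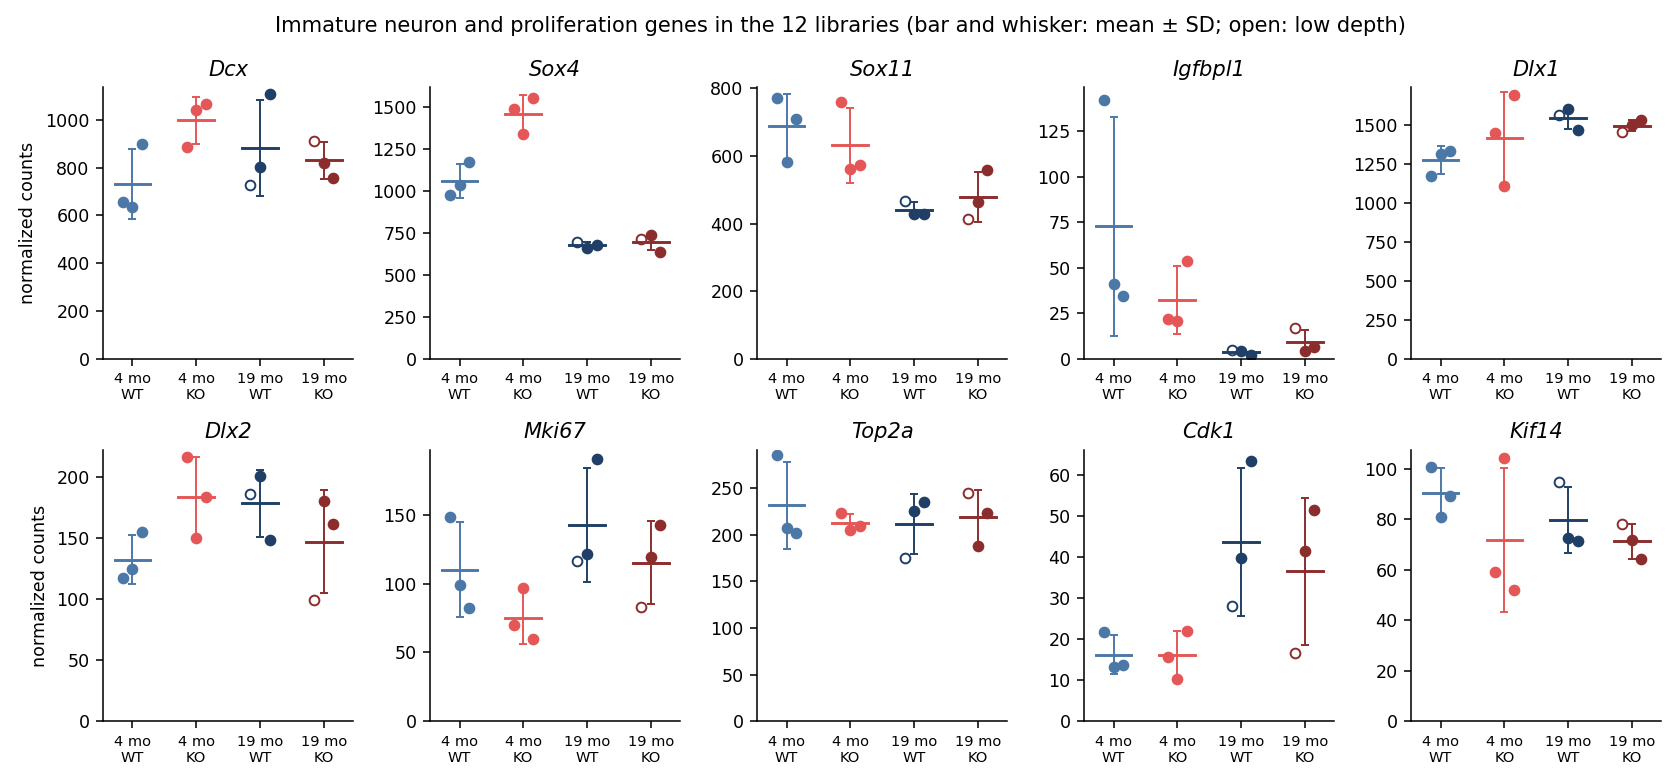
Normalized counts of each of the 10 genes in the 12 libraries, with 1 point per library (open for both shallow libraries), bars at the group mean and whiskers of 1 SD, for WT and *Gde2*KO at 4 and 19 months. *Sox4*, *Sox11* and *Igfbpl1* lie lower in all 6 libraries of 19 months than in any of 4 months.

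The comparison of genotypes within an age asks whether loss of *Gde2* moved these genes in the cortex. At 4 months *Dcx*, *Sox4* and *Dlx2* were each 1.38-fold higher on average in *Gde2*KO than in WT, and *Igfbpl1*, *Mki67* and *Kif14* were lower on average, but none of the 10 genes passed the call used for all genes. A call required an adjusted p under 0.1 in limma's test, with Benjamini-Hochberg adjustment over all genes tested, and a log2 fold change beyond 0.72 in size. At 4 months 24 of 19035 genes tested were called (0.126%), so 0 of 10 is close to that background. At an unadjusted p under 0.05 stood 2 of the 10 genes and 2025 of all genes.

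*Sox4* (chromosome 13, 28948919 to 28953713, minus strand in GRCm38) was at 972, 1032 and 1172 normalized counts in 4-month WT and at 1488, 1335 and 1551 in 4-month *Gde2*KO. All 3 *Gde2*KO libraries were above all 3 WT libraries. None of the other 9 genes had libraries of the genotypes that did not overlap, while 15.4% of all genes tested did. The log2 fold change was 0.46 (SE 0.13, 95% confidence interval 0.16 to 0.77, limma adjusted p = 0.463), and the two-sided exact permutation test gave p = 0.1, the smallest that 3 libraries against 3 allow. Without 4-month WT libraries 1 and 2 the log2 fold change was 0.31, with library 3 alone left in WT. At 19 months *Sox4* was at 694, 658 and 676 in WT and 713, 735 and 638 in *Gde2*KO, which overlapped (log2 fold change 0.04, interval -0.16 to 0.23).

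*Dcx* (chromosome X, 143855842 to 143933311, minus strand) was at 657, 635 and 901 normalized counts in 4-month WT and at 887, 1041 and 1068 in 4-month *Gde2*KO. WT library 3 lay above *Gde2*KO library 1, so the genotypes overlapped. The log2 fold change of 0.46 (SE 0.17, interval 0.06 to 0.86) had a limma adjusted p of 0.463, and it was 0.14 without 4-month WT libraries 1 and 2. At 19 months *Dcx* was at 729, 804 and 1111 in WT and at 913, 820.3 and 758 in *Gde2*KO, with the highest and the lowest library both WT (log2 fold change -0.07, interval -0.42 to 0.28). Over both ages the WT libraries spread from 635 to 1111 and the *Gde2*KO libraries from 758 to 1068.

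*Sox11* (chromosome 12, 27334264 to 27342574, minus strand), the partner of *Sox4*, was at 771, 581 and 710.1 normalized counts in 4-month WT and 759.5, 562 and 574 in 4-month *Gde2*KO. At 19 months it was at 466, 427 and 428 in WT and 415, 462 and 559 in *Gde2*KO. The genotypes overlapped at both ages, and the log2 fold changes were -0.13 (interval -0.54 to 0.28) and 0.11 (interval -0.18 to 0.40).

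*Igfbpl1* (chromosome 4, 45809468 to 45826923, minus strand) varied widely among animals of 1 group. In 4-month WT it was at 142, 41.1 and 34.6 normalized counts and in 4-month *Gde2*KO at 21.9, 20.6 and 53.8. WT library 1 held 197 of the 323 reads of its group and the reads of the *Gde2*KO libraries numbered 35, 30 and 78. The genotypes overlapped, and the log2 fold change of -1.01 (SE 0.59, interval -2.37 to 0.36) had a limma adjusted p of 0.4997. WT libraries 1 and 2 scored 2.47 and 2.39 over the hippocampal markers and WT library 3 scored -0.89. *Igfbpl1* stood high in library 1 alone. Without WT libraries 1 and 2 the log2 fold change was -0.25, and the part of hippocampal tissue was not tested. At 19 months *Igfbpl1* fell below the filter on low values (at least 5 normalized counts in at least 47% of the libraries) and was not tested for genotype.

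*Dlx1* (chromosome 2, 71528113 to 71533981, plus strand) was at 1174, 1318 and 1336 normalized counts in 4-month WT and 1451, 1111 and 1697 in 4-month *Gde2*KO, then at 1568, 1602 and 1469.8 in 19-month WT and 1459.6, 1499 and 1535 in 19-month *Gde2*KO. The genotypes overlapped at both ages (log2 fold changes 0.13 and -0.05). *Dlx2*, its neighbour on chromosome 2 (71543408 to 71546754, minus strand), was at 117, 125 and 155 in 4-month WT and 217, 151 and 184 in 4-month *Gde2*KO. WT library 3 overlapped *Gde2*KO library 2, and the log2 fold change was 0.46 (SE 0.21, interval -0.02 to 0.94, limma adjusted p = 0.463), and 0.23 without 4-month WT libraries 1 and 2. At 19 months *Dlx2* was at 186, 202 and 149 in WT and 99.5, 180.5 and 161 in *Gde2*KO, with a log2 fold change of -0.31 (interval -0.87 to 0.24). The lowest of these was the shallow library A, where 99.5 normalized counts stood for 12 reads.

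The genes of dividing cells overlapped between genotypes at both ages. *Mki67* (chromosome 7, 135689784 to 135716361, minus strand) was at 148, 99.2 and 82.4 normalized counts in 4-month WT and 69.5, 96.9 and 59.4 in 4-month *Gde2*KO, and at 116, 121 and 190.3 against 82.9, 119 and 142.7 at 19 months. The average was lower in *Gde2*KO at both ages, by 0.53 (interval -1.20 to 0.14) and 0.31 (interval -0.92 to 0.31) on the log2 scale, with limma adjusted p-values of 0.488 and 0.766, and at 4 months by 0.16 without WT libraries 1 and 2. *Top2a* (chromosome 11, 98992943 to 99024189, minus strand) was at 286, 208 and 202 in 4-month WT and 223, 205 and 209.8 in 4-month *Gde2*KO, and at 175, 225 and 235 against 245, 188 and 223 at 19 months. Its group means lay between 212 and 232.

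*Cdk1* (chromosome 10, 69335146 to 69352938, minus strand) was scarce at 4 months, at 21.6, 13.3 and 13.7 normalized counts in WT and 15.7, 10.3 and 22.1 in *Gde2*KO. At 19 months it was at 27.95, 39.8 and 63.4 in WT and 16.6, 41.4 and 51.5 in *Gde2*KO, where the values of both libraries A rested on 6 and 2 reads. *Kif14* was at 101, 81.0 and 89.2 in 4-month WT and 59.2, 104 and 52.0 in 4-month *Gde2*KO, and at 94.9, 72.6 and 71.4 against 78.1, 71.6 and 64.1 at 19 months. For both genes the genotypes overlapped at both ages. The log2 intervals of *Cdk1* (-0.95 to 0.86 and -1.46 to 0.81) and of *Kif14* (-1.06 to 0.28 and -0.66 to 0.36) were wide enough to hold differences in either direction.

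At 19 months 18 of 18583 genes tested were called between genotypes (0.0969%), and 0 of the 9 genes tested here. None of the 9 stood at an unadjusted p under 0.05, against 1285 of all genes, and none had libraries that did not overlap, against 14.2% of all genes. Whether the genotype difference itself changed with age was tested as an interaction, in which 9 of 18731 genes had an adjusted p under 0.1 (0.048%) and none of the 10 genes did. *Sox4* (log2 difference -0.43, SE 0.15), *Dlx2* (-0.78, SE 0.34) and *Igfbpl1* (2.03, SE 0.93) had unadjusted p-values of 0.0139, 0.0403 and 0.0496, and limma adjusted p-values of 0.368, 0.380 and 0.388. Leaving out 4-month WT library 3 brought *Sox4* (-0.50, adjusted p = 0.064) and *Dcx* (-0.69, adjusted p = 0.096) past the threshold, but under that alternative 2029 of all genes were called (10.95% of those tested), so these 2 of 10 calls are to be read against that share. Without 4-month WT libraries 1 and 2 the interaction of *Sox4* was -0.27 and that of *Dlx2* -0.54.

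**Figure D2:**
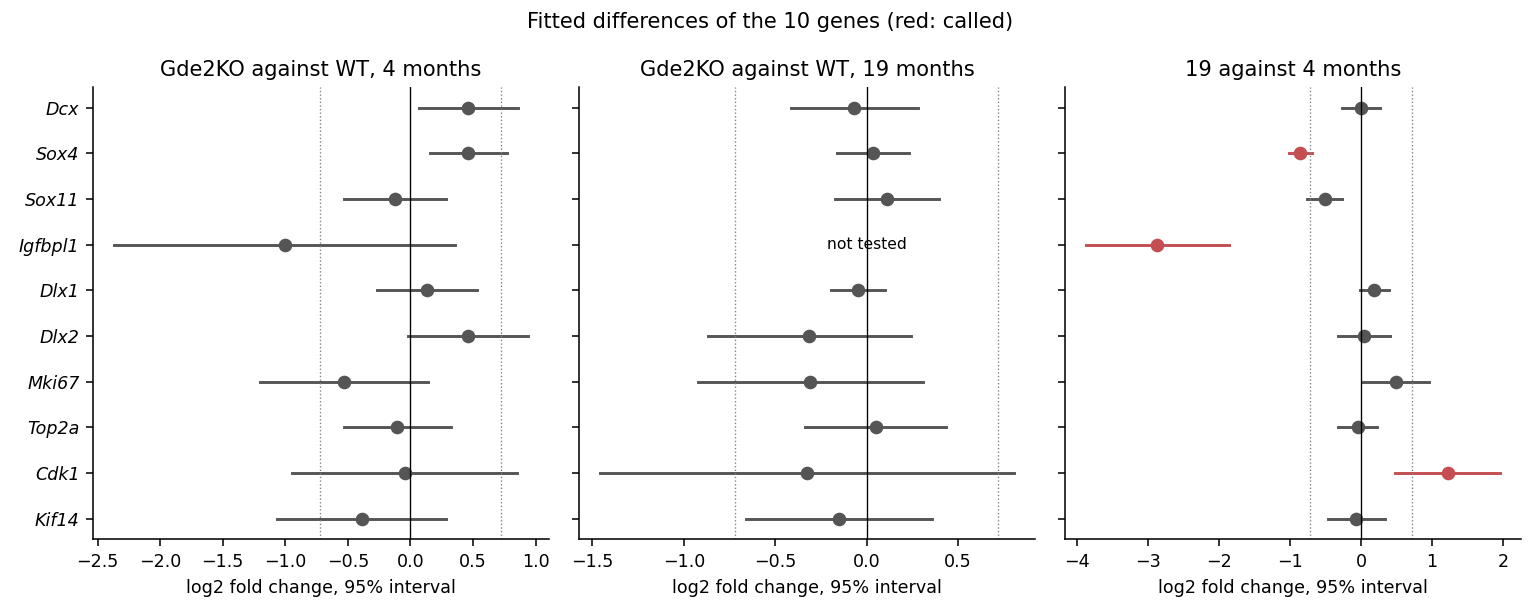
Log2 fold change of each of the 10 genes with its 95% confidence interval (limma), for *Gde2*KO against WT at 4 months and at 19 months and for 19 against 4 months over both genotypes, in red where called, with dotted lines at the limit on fold change. Called genes appear only for age, where *Sox4* and *Igfbpl1* lie left of 0 and *Cdk1* right of it.

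Age, compared over both genotypes, asks which of these genes changed between adult and old cortex. Over both genotypes *Sox4* and *Igfbpl1* were lower and *Cdk1* was higher at 19 months, which made 3 of 10 genes called. Of all 18731 genes tested, 846 were called higher (4.52%) and 1777 lower (9.49%), against 1 and 2 of the 10 genes. *Sox4*, *Sox11* and *Igfbpl1* had no overlap between the 6 libraries of each age, which held for 19.2% of all genes. The median log2 fold change of all genes was -0.15 as deposited, so values near that size are those of a typical gene.

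*Sox4* fell from 1059 ± 103 (SD, n = 3) to 676 ± 18.0 normalized counts in WT and from 1458 ± 111 to 695 ± 51.0 in *Gde2*KO. The log2 fold change over both genotypes was -0.86 (SE 0.07, interval -1.02 to -0.69, limma adjusted p = 1.79e-05), and an exact permutation test of 6 against 6 libraries gave the smallest p it can, 0.00216. Over 28 alternatives in processing it ranged from -0.95 to -0.71, lower in all of them. The call was lost in 1, the scaling to equal totals, where the fold change of -0.71 fell under the limit on size. Within genotypes the change was -0.64 in WT (adjusted p = 0.00279, under the limit on size) and -1.07 in *Gde2*KO (adjusted p = 0.000153, called). Without 4-month WT libraries 1 and 2 the change in WT was -0.79, with library 3 alone left at 4 months. Among all genes, 6.29% were called higher and 7.4% lower with age in WT, and 2.55% and 9.32% in *Gde2*KO.

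*Sox11* moved the same way by less. It went from 688 ± 96.9 to 440.4 ± 22.4 normalized counts in WT and from 632 ± 111 to 479 ± 73.4 in *Gde2*KO, and its highest 19-month library, at 559, lay just under its lowest 4-month library, at 562. The log2 fold change of -0.52 (SE 0.11, interval -0.76 to -0.27, limma adjusted p = 0.00468) did not reach the limit on size, and *Sox11* was therefore not called.

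*Igfbpl1* showed the largest change of the 10 genes. At 19 months it was at 4.66, 4.23 and 2.16 normalized counts in WT and 16.6, 4.21 and 6.24 in *Gde2*KO, from 1, 5 and 3 reads and 2, 6 and 8 reads. All 6 lay below the lowest 4-month library, at 20.6, although the values of both shallow libraries lay under their floors of 3 reads, 13.98 and 24.9 normalized counts. The log2 fold change was -2.87 (SE 0.46, interval -3.88 to -1.86, limma adjusted p = 0.00108), and it ranged from -3.23 to -2.15 over 28 alternatives, called in all. Taken over the summed reads, 466 at 4 months and 25 at 19 months, the level was 11.3-fold lower (95% exact binomial interval 7.59 to 17.7, counting error only). The WT libraries, at 323 and 9 reads, gave 21.2-fold (11.02 to 46.7), or 11.7-fold (5.97 to 26.2) without 4-month WT library 1, and the *Gde2*KO libraries, at 16 reads at 19 months, 5.61-fold (3.34 to 10.1), or 3.76-fold (2.15 to 6.97) without 4-month library 3. Over both genotypes it was 7.30-fold (4.81 to 11.6) without 4-month WT libraries 1 and 2. In WT the log2 fold change was -3.88 (adjusted p = 0.00335), and it was -3.13 with WT library 3 alone left at 4 months. In *Gde2*KO it was -1.86 (adjusted p = 0.0618), and the call was lost without 4-month *Gde2*KO library 3 (-1.42, adjusted p = 0.221), 19-month *Gde2*KO library B (-1.46, adjusted p = 0.182) or C (-1.72, adjusted p = 0.141).

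*Dcx*, in contrast, had a fold of 0.999 over both genotypes (log2 interval -0.27 to 0.27, limma adjusted p = 0.996), an average of values that differed in sign between genotypes. Its log2 fold change was 0.26 in WT (interval -0.11 to 0.64, adjusted p = 0.303) and -0.27 in *Gde2*KO (interval -0.64 to 0.11, adjusted p = 0.281), and neither was called. *Dlx1* and *Dlx2* were 1.14-fold and 1.03-fold their 4-month level (log2 intervals -0.02 to 0.39 and -0.33 to 0.41), and neither was called. *Dlx2* had a log2 fold change of 0.43 in WT (adjusted p = 0.226) and -0.35 in *Gde2*KO (adjusted p = 0.304).

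Of the genes of dividing cells, *Cdk1* rose from 16.2 ± 4.68 to 43.7 ± 18.1 normalized counts in WT and from 16.0 ± 5.90 to 36.5 ± 18.0 in *Gde2*KO. Only the shallow *Gde2*KO library A, at 16.6, lay within the 4-month range. The log2 fold change was 1.22 (SE 0.34, interval 0.47 to 1.96, limma adjusted p = 0.0162). It was positive in all 28 alternatives, from 0.74 to 1.70, and the call was lost in 1, with gene sums of TPM (0.74, adjusted p = 0.145). In WT alone the change was 1.36 (adjusted p = 0.0691), and leaving out 4-month WT library 2 or 3 or 19-month WT library B or C ended the call. In *Gde2*KO alone it was 1.08 (adjusted p = 0.125), and 1.56 without the shallow library A (adjusted p = 0.038).

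*Mki67* went in the same direction, from 110.0 ± 34.3 to 142.6 ± 41.4 normalized counts in WT and from 75.3 ± 19.4 to 115 ± 30.1 in *Gde2*KO, with overlap. Its log2 fold change of 0.49 (SE 0.21, interval 0.03 to 0.96, limma adjusted p = 0.0871) stayed under the limit on size. *Top2a* (-0.05, interval -0.32 to 0.23) and *Kif14* (-0.07, interval -0.47 to 0.34) were not called.

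Of all genes, 0.126% were called between genotypes at 4 months and 0.0969% at 19 months. Further genes of related cell states and pathways were grouped in 7 lists, and between genotypes 0 genes of any list were called at either age. Their median log2 fold changes were 0.08 for immature neurons, 0.41 for the DLX family and interneuron development, 0.10 for S phase, 0.09 for G2 and mitosis, 0.34 for the inhibitors of cyclin-dependent kinases, 0.03 for neural stem cells and 0.16 for neuronal microtubule genes at 4 months, and in the same order 0.03, 0.14, -0.14, -0.05, -0.03, 0.12 and 0.08 at 19 months. Among the most abundant genes of the lists were *Stmn1*, a tubulin-binding protein of growing neurons, and the glutamate decarboxylases *Gad1* and *Gad2* of inhibitory neurons. *Stmn1* had a log2 fold change of 1.07 (limma adjusted p = 0.463) at 4 months and -0.08 at 19 months. *Gad1* was at 0.42 and -0.08, and *Gad2* at 0.26 and 0.06. Of the dividing-cell lists, the replication clamp gene *Pcna* was at -0.09 and -0.24, *Rrm1* at 0.21 and 0.14, *Cit* at 0.58 and -0.03, the histone gene *H2afz* at 0.44 and -0.10, and the inhibitors *Cdkn1b* and *Cdkn2d* at 0.19 and -0.04 and at 0.33 and -0.03. The remaining abundant genes, *Stmn2*, *Slc1a3*, *Vim*, *Map2* and *Map1b*, were at 0.19, 0.11, -0.29, -0.13 and -0.35 at 4 months. The interneuron markers as a whole summed to 25594, 26506 and 38587 normalized counts in the 4-month WT libraries and to 38191 to 51726 in 4-month *Gde2*KO. Their part in the values of *Dlx1* and *Dlx2* was not tested.

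With age over both genotypes, 6 of 22 further immature neuron genes fell and none rose, with a median log2 fold change of -0.34 beside -0.15 over all genes. Of all genes tested 9.49% were called lower and 4.52% higher, the shares against which these list counts are to be read. *Marcksl1*, an actin-regulating protein of growing axons, fell by 1.55 on the log2 scale (SE 0.19, limma adjusted p = 0.000248). *Calb2*, the calcium-binding protein calretinin, was at -1.33 (adjusted p = 0.00616), *Nrep* at -0.99 (adjusted p = 0.000725) and the surface glycoprotein gene *Cd24a* at -1.0035 (adjusted p = 0.00684), and *Draxin* and *Tubb2b* were also lower. Calretinin is also made by mature interneurons. Within WT 6 of the 22 were lower and 1 was higher, *Stmn1* (0.73, adjusted p = 0.0827), which was at -0.41 in *Gde2*KO and not called there. In *Gde2*KO 5 of the 22 were lower and 0 higher. Of all genes, 7.4% were called lower and 6.29% higher in WT, and 9.32% and 2.55% in *Gde2*KO. *Stmn1* was singled out after its values were seen. Of 12 tested genes of the DLX family and interneuron development, *Nkx2-1*, a homeobox factor of the ventral forebrain, was lower (-2.38, adjusted p = 0.000948) and none was higher, with a list median of -0.30. Of 13 genes of neural stem cells, *Hopx* was lower (-0.80, adjusted p = 0.00873) and none was higher (median -0.18), and none of 8 doublecortin family and microtubule genes was called (median -0.18), among them *Map2* at -0.33 and *Map1b* at -0.04.

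Of all genes, 4.52% were called higher and 9.49% lower with age over both genotypes. Of 29 further genes of G2 and mitosis, 6 rose and none fell, with a median of 0.21. They were *Cdc20*, which activates the anaphase-promoting complex (0.82, limma adjusted p = 0.00462), the mitotic kinesin gene *Kif20a* (0.73, adjusted p = 0.0124), *Ccnb1*, the cyclin partner of CDK1 (1.06, adjusted p = 0.0133), the citron kinase gene *Cit* (0.80, adjusted p = 0.0174), *Aurkb* and *Ube2c*. *Cit*, at 3514 to 6639 normalized counts by group, is also made by neurons. Without 4-month WT libraries 1 and 2 the count was 2, and it was 5 without both shallow libraries. Within WT 5 of the 29 were higher and within *Gde2*KO 1 was, with 0 lower in either. Of all genes, 6.29% were called higher in WT and 2.55% in *Gde2*KO. Of 20 S phase genes *Uhrf1* rose (1.03, adjusted p = 0.00313) and *Gins1* fell (-0.86, adjusted p = 0.0707), with a median of -0.09, and of 7 inhibitors of cyclin-dependent kinases *Cdkn2a*, a gene that accumulates with age in many tissues, rose (1.29, adjusted p = 0.0594) from 3.68 to 14.6 normalized counts in WT (2.08, adjusted p = 0.0599). In *Gde2*KO *Cdkn2a* was at 8.91 and 14.5 (0.51, adjusted p = 0.623) and was not called. The median of that list over both genotypes was -0.07. These 19-month means of *Cdkn2a* lay near or under the floors of 3 reads of both shallow libraries, 13.98 in WT and 24.9 in *Gde2*KO. With 1 library left out, 0 to 2 of the inhibitors were called higher over both genotypes. Of the S phase genes 1 to 3 were then called higher and 0 to 3 lower.

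Markers of other cells and regions moved with age over both genotypes as well. Their counts stand beside 9.49% of all genes called lower and 4.52% called higher. Of 10 markers of oligodendrocyte precursors 4 were called lower (*Neu4*, *Enpp6*, *C1ql1* and *Gpr17*), and the list summed to 8620.4 to 10431 normalized counts in the 4-month libraries and to 5923 to 6653 in the 19-month libraries. Of 12 hippocampal markers 6, of 10 striatal markers 6, of 7 markers of choroid plexus and ependyma 4, of 7 oligodendrocyte markers 3 and of 6 markers of olfactory bulb and migratory stream 1 were lower. Of 9 markers of cortical excitatory neurons 3 and of 5 blood markers 3 were higher. Of 9 markers of cortical interneurons 1 (*Lamp5*) and of 7 endothelial markers 1 (*Ly6c1*) were higher, of 6 astrocyte markers 1 (*Aqp4*) was lower, and of 8 microglial markers 0 were called. Between genotypes 0 markers of the 12 lists were called at 4 months and 1, the hippocampal *Fibcd1*, was higher at 19 months. Of all genes, 0.126% and 0.0969% were called at these ages. All 10 striatal markers were nonetheless higher on average in *Gde2*KO at both ages (median log2 fold changes 2.24 and 1.07). Of the 12 hippocampal markers 1 was higher on average at 4 months (median -1.68) and 11 at 19 months (median 0.41). The part of these regions in the genotype values of the 10 genes was not tested. The cortical excitatory markers summed to 126693 to 226334 normalized counts. *Camk2a* alone averaged 83869 to 135073 by group, so this sum is a weak check of the labelled tissue. The mean log2 score of these markers, in which each gene counts alike, was -0.80 and -0.68 in 4-month WT libraries 1 and 2. It was -0.12 to 0.26 in the other libraries. No marker was at 0 throughout a group. The counts of markers called with age differed by genotype, although that difference was not tested. They stand beside 7.4% of all genes called lower and 6.29% higher in WT, and 9.32% and 2.55% in *Gde2*KO. In WT 8 hippocampal, 0 striatal, 4 choroid plexus, 5 oligodendrocyte precursor, 3 oligodendrocyte, 1 interneuron and 1 astrocyte marker were lower, and 4 excitatory, 4 blood, 3 interneuron and 2 endothelial markers were higher. In *Gde2*KO 1 hippocampal, 3 striatal, 3 oligodendrocyte precursor, 3 oligodendrocyte, 2 olfactory, 1 astrocyte, 1 microglial and 1 endothelial marker were lower and 0 markers were higher. With 4-month WT libraries 1 and 2 left out, the list median over both genotypes was -0.03 for hippocampal and -2.62 for striatal markers. With all libraries these medians were -0.99 and -1.51. The part of the markers in the age differences of *Sox4*, *Sox11*, *Igfbpl1* and *Cdk1* was not tested. With 4-month WT libraries 1 and 2 left out, *Sox4* and *Igfbpl1* were still lower and *Cdk1* still higher over both genotypes.

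**Figure D3:**
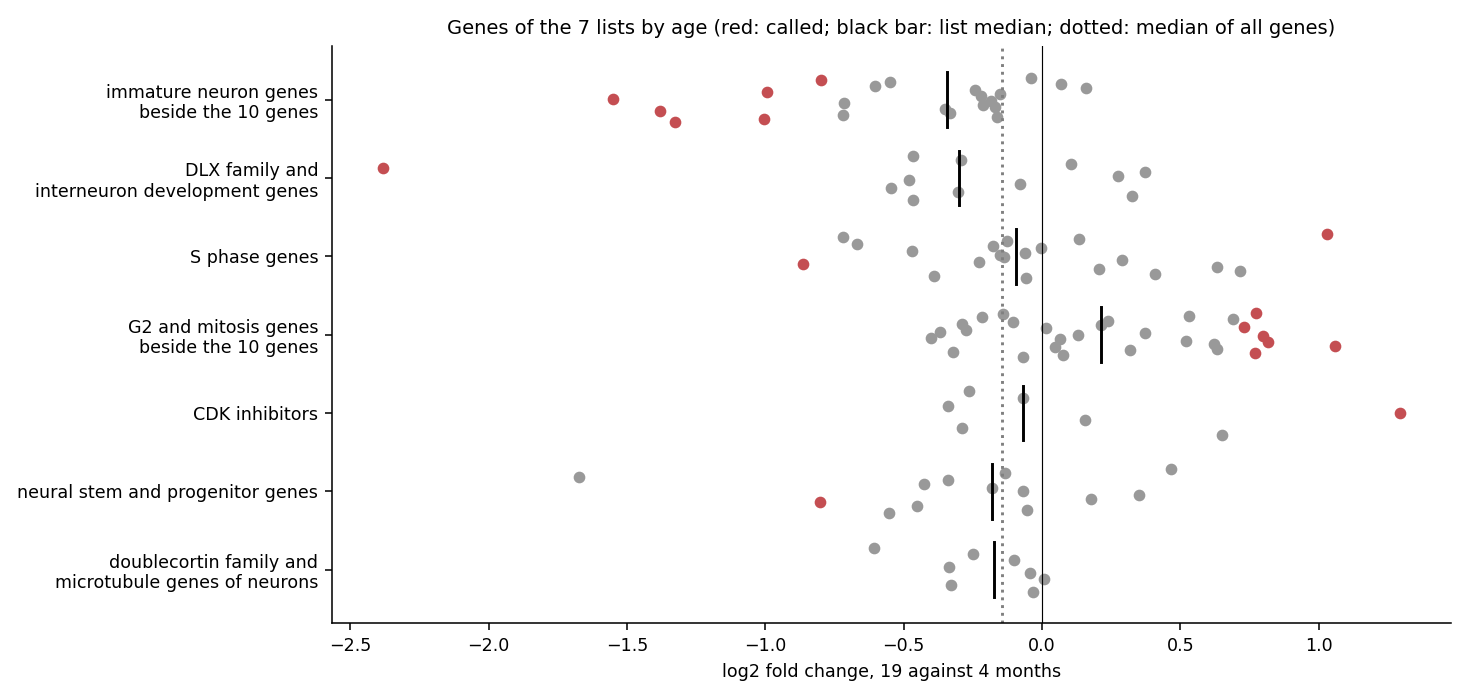
Log2 fold change with age (19 against 4 months, both genotypes) of each gene in the 7 lists, with 1 point per gene, in red where called, and a black bar at each list's median. The dotted line is the median of all genes, -0.15. The called genes of the immature neuron list all lie below 0 and those of the G2 and mitosis list all above 0.

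A match in the upstream sequence was looked for in the genes that the promoter table holds, since genes of late cell cycle often carry CCAAT boxes, bound by NF-Y, and a cell cycle genes homology region, bound by the DREAM complex. In the 250 bases before the start of 32851 RefSeq promoters (GRCm38.p6), CCAAT, read on either strand, stood in 33.8% and TTTGAA or else TTCGAA, also on either strand, in 17.1%. Both motifs stood in 6.02%. All 4 genes of dividing cells held both, with 3 and 2 matches for *Mki67*, 6 and 4 for *Top2a*, 3 and 2 for *Cdk1* and 1 and 1 for *Kif14*. Of the immature neuron genes, *Sox11* held both, *Sox4* had 4 CCAAT matches, *Dlx2* 1 and *Dlx1* 0, *Dcx* had 1 and 0 in its 2 promoters, and *Igfbpl1* was not in the table. The promoters of *Cdk1* and *Top2a* are shown because 1 of these genes was called with age and the other was not although both carry both motifs. They run 5′ to 3′ on the minus strand at chr10:69352913-69353162 and chr11:99024190-99024439, with the matches in capitals, none of which overlap.
Cdk1: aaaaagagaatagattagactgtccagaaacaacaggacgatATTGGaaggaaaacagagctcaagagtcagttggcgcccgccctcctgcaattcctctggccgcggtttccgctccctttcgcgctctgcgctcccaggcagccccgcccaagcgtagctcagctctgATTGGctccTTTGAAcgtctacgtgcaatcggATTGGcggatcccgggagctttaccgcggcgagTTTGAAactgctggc
Top2a: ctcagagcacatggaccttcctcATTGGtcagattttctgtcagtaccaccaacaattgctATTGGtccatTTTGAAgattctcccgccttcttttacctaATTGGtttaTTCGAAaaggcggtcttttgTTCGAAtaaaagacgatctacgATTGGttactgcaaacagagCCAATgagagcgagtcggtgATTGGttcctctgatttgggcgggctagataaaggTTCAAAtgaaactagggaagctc

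Transcript values added a difference that the gene sums did not hold. *Kif14*, on chromosome 1 at 136466343 to 136531511 (GRCm38, plus strand), had gene totals that overlapped in all 4 groups, but in 19-month WT nearly all of its coding signal was assigned to the transcript Kif14-203 in place of Kif14-201. In 4-month WT Kif14-201 was at 82.1, 66.9 and 69.7 normalized counts and Kif14-203 at 0.301 or less, and in 4-month *Gde2*KO Kif14-201 was at 44.0, 88.2 and 45.5 and Kif14-203 at 1.90, 0 and 0. In 19-month WT Kif14-203 was at 94.9, 62.5 and 60.4 and Kif14-201 at 0.0185 or less, and in 19-month *Gde2*KO Kif14-201 was at 60.5, 58.0 and 37.5 and Kif14-203 at 0, 0 and 16.96. The 3 libraries of 19-month WT thus stood apart from the other 9, of which *Gde2*KO library C alone had more than 2 normalized counts of Kif14-203. The floor of 3 reads in 19-month WT is 13.98 normalized counts in library A and 2.54 and 2.16 in B and C, all below the lowest level of Kif14-201 in the other groups, 37.5. In 19-month *Gde2*KO library A that floor is 24.9 and all of *Kif14* held 9.42 estimated reads, so its 0 for Kif14-203 says little. Reads shared by both transcripts were divided between them by the authors' estimation. The retained intron transcript Kif14-202 was at 0 to 19.5 normalized counts.

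As a share of the gene's TPM, Kif14-203 was 81.4% ± 16.1 in 19-month WT and 7.33% ± 12.7 in 19-month *Gde2*KO (SD, n = 3). Transcript usage was called with an adjusted p under 0.1 in limma's diffSplice F test and a change over 10 percentage points in the share of a transcript. At 19 months *Kif14* was called (-74.1 points, adjusted p = 0.0160), 1 of 5 genes tested here against 21 of 12253 genes (0.171%). The call held in all 10 alternatives, with -81.4 to -61.2 points and adjusted p-values of 0.00101 to 0.0935. At 4 months none of 4 genes was called against 122 of 12235 (0.997%), and *Kif14* differed by -3.70 points (adjusted p = 0.941). The difference between the ages in the genotype effect, tested after these values were seen, was called by its adjusted p alone, with no limit on points, for *Kif14* (adjusted p = 0.000941) and for 195 of 12304 genes (1.58%).

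Kif14-203 has 8943 bases in 29 exons and 5022 coding bases, and Kif14-201 has 8770 bases in 30 exons and 4872 coding bases. Within the first exon of Kif14-203 lie 150 coding bases, or 50 codons, at chr1:136468770-136468919, that Kif14-201 lacks as an additional intron, and the other differences in length lie outside the coding sequence. The stretch is shown because it is the coding difference between both transcripts. It is flanked by a run of 29 bases that occurs at both of its edges, in capitals below, so that the place of its edges within that run is not fixed by sequence. The letters GT, with which nearly all introns begin, do not occur in the run. The sequence is chr1:136468761-136468939, GRCm38, plus strand, from the GENCODE vM21 transcripts.
Kif14: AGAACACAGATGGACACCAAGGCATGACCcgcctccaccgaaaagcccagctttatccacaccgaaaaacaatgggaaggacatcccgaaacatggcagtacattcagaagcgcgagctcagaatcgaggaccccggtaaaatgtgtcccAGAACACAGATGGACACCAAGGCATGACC

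*Cdk1* changed its assigned transcripts with age. Cdk1-202 was at 6.05, 3.49 and 0 normalized counts in 4-month WT and 6.45, 0.706 and 8.81 in 4-month *Gde2*KO, and at 17.1, 28.03 and 35.5 and 16.6, 23.9 and 28.8 at 19 months, where all 6 libraries lay above those of 4 months. Cdk1-207 was at 5.16 to 10.3 normalized counts at 4 months and 0 to 6.92 at 19 months, and its mean share of TPM went from 57.0% to 9.58%. In a test added after these values were seen, *Cdk1* (-47.4 points, adjusted p = 0.00617) and *Kif14* (43.9 points for Kif14-203, adjusted p = 0.00523) were called with age, 2 of 5 genes against 458 of 12304 (3.72%). The points of *Kif14* average unlike genotypes. The mean share of Kif14-203 went from 0.080% to 81.4% in WT and from 0.822% to 7.33% in *Gde2*KO. The test of *Cdk1* was possible in 7 of 13 alternatives and called in those. These values rest on few reads, and reads shared by transcripts were divided among them by the authors' estimation.

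**Figure D4:**
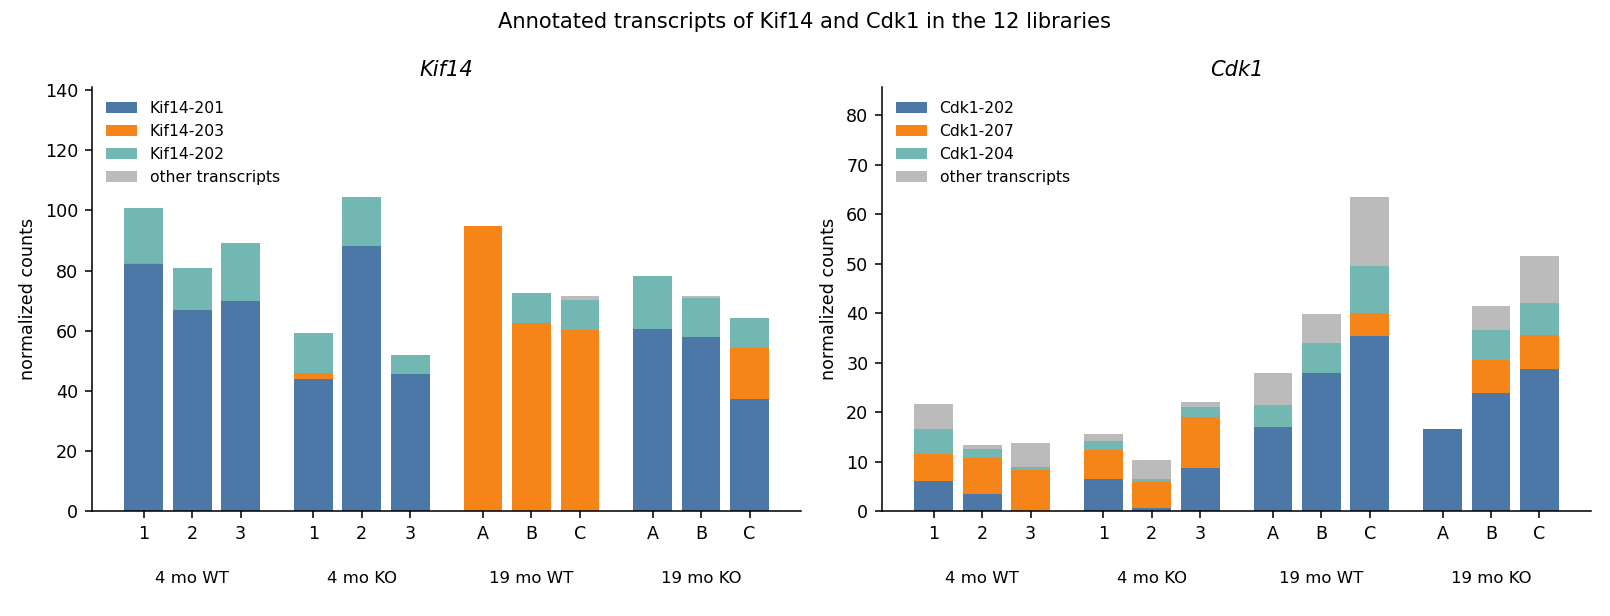
Normalized counts of the transcripts of *Kif14* and *Cdk1* in each of the 12 libraries, grouped by age and genotype, with 1 coloured bar segment per transcript stacked to the gene total. Kif14-203 makes up most of *Kif14* in the 3 libraries of 19-month WT and little of it in the other 9, and Cdk1-202 is larger at 19 months.

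No change of transcript usage was called in the other genes tested, *Dcx*, *Dlx1* and *Top2a*. *Sox4*, *Sox11* and *Mki67* were read almost wholly from 1 transcript each, and Dcx-201 held 71.2% to 82.9% of the TPM of *Dcx* by group. The coding Top2a-201 held 32.8% to 44.4% of the TPM of *Top2a* by group. The noncoding Top2a-205, of 970 bases, held 26.7% to 39.5%. Most of the signal of *Dlx1* did not come from its coding transcript: the retained intron transcript Dlx1-203 held 34.1% to 40.1% of its TPM by group, Dlx1-206 held 39.9% to 42.5%, and the coding Dlx1-201 held 13.0% to 18.8%, at 312 to 378 normalized counts in the 4-month and 343 to 566 in the 19-month libraries. An antisense gene overlaps *Dlx1*, as a noncoding gene overlaps *Sox4*, and since the sources used here do not say whether the counting used strand, reads of such partners cannot be told apart.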

How the data were processed

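Total RNA of cortex was prepared as poly(A) libraries with the NEBNext Ultra II RNA kit and sequenced paired-end on an Illumina HiSeq instrument. The submitters' processing notes name bcl2fastq 2.17, Trimmomatic 0.36, STAR 2.5.2b, kallisto, sleuth and the build GRCm38. The authors deposited transcript estimates as signal values, kallisto estimated counts and TPM divided by a size factor. The step between low values gave the worth of 1 read, but only 46.7% to 62.9% of values were whole reads within 0.01, since kallisto divides shared reads, and no count model was used. Of 118489 transcripts 1673 had no gene, holding 0.541% to 0.605% of a library. No columns of samples were left unused (0), and the 19-month libraries are named A, B and C in column order because their columns carry no replicate number of the labels.

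Transcripts were summed to genes. Genes with at least 5 normalized counts in at least 47% of the compared libraries were tested on log2(normalized count + 0.5) with limma 3.58.1 (intensity trend, R 4.3.3), so fold changes are on that scale and understate changes of low genes. Genotype was fitted at each age alone, and age and the interaction over 1 mean for each of 4 groups. A call needed an adjusted p under 0.1 and a natural-log fold change beyond 0.5 (0.72 on the log2 scale), and a call of transcript usage a change over 10 percentage points, except in the interactions, where the adjusted p alone made the call. Transcript usage was tested with diffSplice on transcripts with a mean of at least 5 normalized counts. Single genes were tested with exact permutation tests in scipy 1.17.1, and figures were drawn with matplotlib 3.10.9 in Python 3.11.15 from tables made with pandas 2.3.3 and numpy 2.4.6. All fits were tested on simulated data. Intervals on reads and floors of 3 reads cover counting error only. The libraries came from separate animals, and no batch is given for them.

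The 10 genes, the 7 gene lists and the 12 marker lists were chosen with earlier results of these data known. All 10 genes were named, with up to 4 called genes of a list by adjusted p, or the 2 most abundant where none was called. *Draxin*, *Tubb2b*, *Aurkb* and *Ube2c* lay beyond that rule and were named after their values were seen. Alternatives were other pseudocounts, filters, scalings, weights, thresholds and TPM, a replicate block, and leaving out libraries. Leaving out both shallow libraries together with 4-month WT libraries 1 and 2 was added after seeing the data. So were the tests of transcript usage across ages, and the ratios of *Igfbpl1* reads and the marker medians with libraries left out. Sequences were read from RefSeq promoters (GRCm38.p6) and GENCODE vM21 transcripts.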

Additional observations from a re-analysis of the deposited data

Results flagged for a closer look

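The genotype difference in the transcript usage of *Kif14* differed between 4 and 19 months (limma diffSplice F test of the interaction over all 12 libraries, adjusted p = 0.000941). The difference in the share of Kif14-203 between *Gde2*KO and WT was -74.1 points at 19 months, and the change in that difference from 4 months was -74.9 points, with all 3 libraries of 19-month WT at 71.1% or more and the other 9 libraries at 22.0% or less. Over 13 alternatives it lay between -82.2 and -61.9 points, with adjusted p-values of 1.07e-05 to 0.0104. The test was added after the values were seen. The shallow 19-month *Gde2*KO library A held 9.42 estimated reads of *Kif14*.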

How the results depend on the processing

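The directions of the called changes of *Sox4*, *Igfbpl1* and *Cdk1* with age over both genotypes held under all 28 alternatives. Of the 10 genes, 0 were called between genotypes at 4 months and 0 at 19 months under all 20 alternatives. At 4 months 2 were called with array weights (*Igfbpl1* and *Dlx2*), where 15.4% of all genes were. With age over both genotypes 3 were called, and 5 with no limit on fold change, where 47.3% of all genes were. In WT 2 were called, and 1 with no filter (10.4% of all genes called), gene TPM (13.5%) or an adjusted p under 0.05 (10.4%). It was 4 with no limit on fold change (28.2% of all genes), and 1 to 2 with 1 library left out (8.23% to 16.7%). In *Gde2*KO 2 were called, and 1 with no filter (9.17% of all genes called) or an adjusted p under 0.05 (9.03%). It was 4 with equal totals (8.91%), array weights (17.8%), voom (13.1%) or without both shallow libraries (12.8%). With 1 library left out it was 1 to 4 (5.91% to 15.4% of all genes). In the interaction 0 were called, 5 with array weights and 0 to 2 with 1 library left out, where calls over all genes went from 9 to 8744 of 18731 with array weights, 5 with gene TPM and 6 to 2029 with 1 library left out, the last without 4-month WT library 3.

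Replicate numbers of the 4-month labels were not used to pair the samples. Same-numbered deviations correlated at 0.0603, -0.0315 and -0.0706, and differently numbered ones at -0.19 to 0.16. With 3 libraries a genotype these values cannot decide whether the samples were paired. With the number as a replicate block 0 of the 10 genes and 21 of all genes were called at 4 months, and in transcript usage 0 and 97.

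Counts over all genes moved more. Between genotypes at 4 months 24 became 2934 with array weights, 12 with no filter, no trend or an adjusted p under 0.05, 14 without WT libraries 1 and 2, and 5 to 1510 with 1 library left out, the last without WT library 3. At 19 months 18 became 77 with array weights, 7 with no trend, 37 with voom, 34 without both shallow libraries and 9 to 45 with 1 left out. With age 2623 became 8860 with no limit on fold change and 1720 without 4-month WT libraries 1 and 2. The share of lower genes among those called with age was 67.7% as deposited, 51.4% with equal totals and 56.1% with median ratios, where the median of all genes was -0.00 and -0.04 in place of -0.15, and *Sox4*, *Igfbpl1* and *Cdk1* kept their directions. The cause of these shifts was not tested. Further immature neuron genes lower with age numbered 4 to 14 and those of G2 and mitosis higher 2 to 11. Both shallow libraries limit the low genes, *Igfbpl1* and *Cdk1*.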

Other observations

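Within groups, *Dcx* varied most closely with *Sp8* among 14295 genes. Pearson's r over the 12 libraries, taken on deviations from the group means, was 0.927 for *Sp8*, 0.923 for *Lingo2*, 0.920 for *Mybpc1*, 0.909 for *Sspn* and 0.908 for *Hmgb3*. *Top2a* varied most closely with *Zfp804a* at 0.905, *Trim36* at 0.895, *Dhcr7* at 0.887, *Gm12901* at 0.884 and *Zfp141* at 0.855. These are the highest of 14295 correlations over only 12 libraries, and how high such values reach by chance was not tested. The libraries share preparation and depth, and the values are a description of the animals within groups.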
